A study of Danio rerio with 5 samples.

Results

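The fibrinogen chain genes fga, fgb and fgg encode the Aα, Bβ and γ chains of fibrinogen, the soluble plasma protein that thrombin converts into the fibrin of a blood clot. The 3 genes were found by gene symbol in the platform's probe-to-gene table and make up 3 of the 8793 genes that the array names, each with 1 probe set. The 3 genes were selected on the values of these same arrays, as all 3 were higher in irradiated larvae, so their own values are given as a description with no test.

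RNA of whole zebrafish larvae of the AB strain was measured at 7 days after fertilization on 5 Affymetrix arrays, each with a pool of 20 animals. The control group was not irradiated (1 array), and the other embryos received 12 Gy (1 array) or 15 Gy (3 arrays) of protons at 24 h after fertilization. Absorbed dose is measured in gray (Gy), and the beam had 8 MeV/u and a rate of 7.5 Gy/min. No group carried a genetic change, per the labels. The labels call the 15 Gy pools biological replicates without saying that they were irradiated separately (the design gives 60 embryos per group, as many as the 3 pools of 20 hold together), and neither the control nor 12 Gy had a replicate.

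Fibrinogen is made by hepatocytes. Its chains are joined by disulfide bonds in the endoplasmic reticulum, and a finished molecule holds a pair of each, so all of the chain genes are needed for secretion. In mammals fibrinogen is an acute phase protein: interleukin-6 acts through the transcription factor STAT3 and, together with C/EBP factors, raises transcription of the chain genes in the liver. Thrombin cuts fibrinogen, factor XIII crosslinks the fibrin, and plasmin dissolves it.

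The chain genes are not a single block in zebrafish. In the RefSeq gene table of assembly GRCz12tu, used here only for gene order, all 3 lie on the same chromosome. The genes fga and fgb are separated by 1 protein-coding gene model, whereas fgg lies 258 protein-coding genes away from fga. The nearest protein-coding neighbours of fgg are plrg1 and lrata, and fga lies next to lratb.1. In human, the 3 fibrinogen genes are adjacent and lie between PLRG1 and LRAT.

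The 15 Gy arrays did not depart from the control to the same extent. Over 15502 probe sets, the SD of the log2 difference from the control was 0.64 for the 12 Gy pool and 0.93, 0.53 and 0.69 for 15 Gy pools 1, 2 and 3. Pool 2 thus lay nearer to the control than the 12 Gy pool did, and its correlation across probe sets was 0.990 with the 12 Gy pool and 0.973 with pool 1 of its own dose. Among 776 probe sets more than 2-fold apart between 15 Gy pools 1 and 2, pool 3 lay between them in 748. No probe set was at least 2-fold from the control in pools 2 and 3 without being so, in the same direction, in pool 1. The fibrinogen results at 15 Gy are therefore given for each pool and without pools 1 and 2 in turn.

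All 3 chain transcripts were lowest in the control array and several-fold higher in each of the 4 irradiated arrays. The Aα chain gene fga had an intensity of 71.3 in the control pool, 416 in the 12 Gy pool, and 620, 348 and 559 in 15 Gy pools 1, 2 and 3. The irradiated arrays did not overlap with the control, but the 12 Gy array fell within the range of the 15 Gy arrays. Relative to the control, fga was 5.84-fold higher at 12 Gy, and 8.69-fold, 4.89-fold and 7.84-fold higher in 15 Gy pools 1, 2 and 3.

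The Bβ chain gene fgb had an intensity of 44.5 in the control pool, 224 in the 12 Gy pool, and 458, 241 and 368 in 15 Gy pools 1, 2 and 3. Here the 12 Gy array lay just below the lowest 15 Gy array. The fold over the control was 5.03 at 12 Gy and 10.3, 5.40 and 8.28 in 15 Gy pools 1, 2 and 3, and pool 1 gave the largest fold of any chain in any array.

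The γ chain gene fgg had an intensity of 50.6 in the control pool, 165 in the 12 Gy pool, and 424, 217 and 315 in 15 Gy pools 1, 2 and 3. Its 12 Gy array stood farther below the 15 Gy arrays than that of the other chains. The fold over the control was 3.27 at 12 Gy and 8.39, 4.29 and 6.23 in 15 Gy pools 1, 2 and 3.

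**Figure D1:**
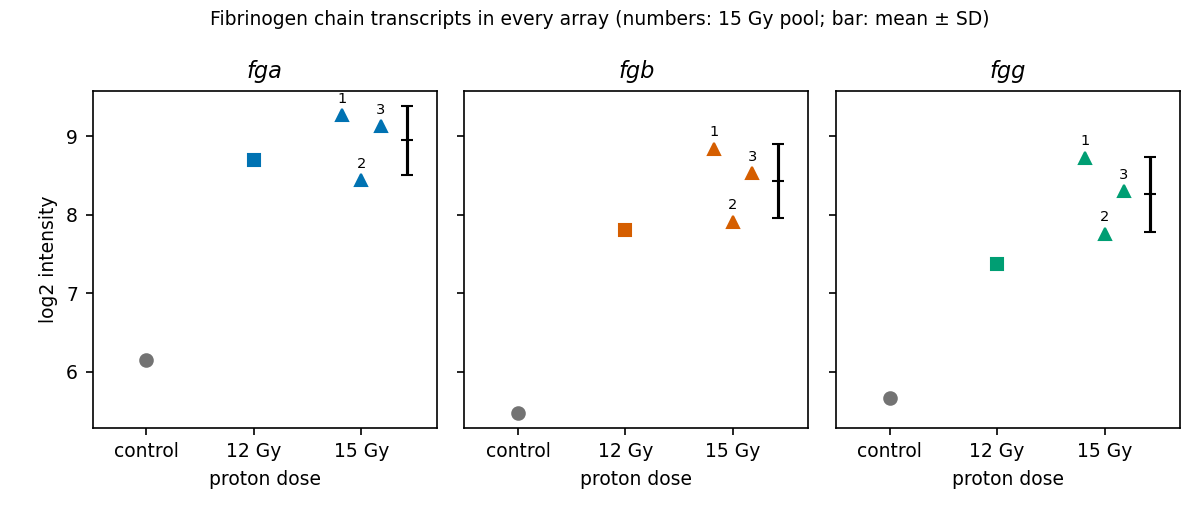
Log2 intensity (vertical axis) of fga, fgb and fgg by proton dose (horizontal axis), 1 point per array, with numbers for the 15 Gy pools and a bar for their mean ± SD (n = 3). The control lies at 6.15, 5.48 and 5.66 for fga, fgb and fgg, below all irradiated arrays, and 15 Gy pool 2 is the lowest of the 15 Gy arrays for each gene.

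On the log2 scale, fga averaged 8.95 ± 0.44 at 15 Gy (SD, n = 3), against 6.15 in the control, a difference of 2.79 (SE 0.41) or 6.93-fold. For fgb the mean was 8.43 ± 0.47 at 15 Gy (SD, n = 3), against 5.48 in the control, a difference of 2.95 (SE 0.44) or 7.72-fold. For fgg it was 8.26 ± 0.48 at 15 Gy (SD, n = 3), against 5.66 in the control, a difference of 2.60 (SE 0.45) or 6.08-fold. Without pool 1 the log2 differences were 2.63, 2.74 and 2.37 for fga, fgb and fgg, and without pool 2 they were 3.05, 3.21 and 2.85. Each SE comes from the limma fit across all probe sets, whose spread rests on the 15 Gy arrays alone. Among 8793 genes ordered from the largest increase down, fgb stood at place 32, fga at 39 and fgg at 59. In every case the difference from the control was larger than the range of the 15 Gy arrays, which was 0.83 for fga, 0.93 for fgb and 0.97 for fgg.

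These values chose the genes, so the background is given without reading anything from it. Of all 8793 genes, 448 (5.09%) were at least 2-fold higher than the control in each of the 15 Gy arrays, as were all 3 chain genes. A further 219 genes (2.49%) were at least 2-fold lower in each. Counted by probe sets, 642 of 15502 (4.14%) were higher and 435 (2.81%) lower by this rule. Without 15 Gy pool 2 the counts were 740 genes higher (8.42%) and 428 lower (4.87%), where leaving out a pool can only keep or raise such a count. Of these probe sets, 0 (0%) passed limma at an adjusted p of 0.05 in this comparison (smallest adjusted p 0.167), and 4062 (26.2%) had an unadjusted p under 0.05. The control values of fgb and fgg lay below the median of that array (5.95 on the log2 scale) and that of fga just above it. The robust multi-array average (RMA) that made the values can shrink differences of dim probe sets, and its part in these folds was not tested.

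At 12 Gy the chains spread further apart. Relative to the control, fga was higher by 2.55, fgb by 2.33 and fgg by 1.71 on the log2 scale, places 62, 81 and 183 among all genes. All 3 exceeded the control at least 2-fold at 12 Gy, as did 564 genes in all (6.41%), whereas 398 genes (4.53%) were at least 2-fold lower. With limma, 0 probe sets (0%) passed at an adjusted p of 0.05 here (smallest adjusted p 0.0562) and 2644 (17.1%) had an unadjusted p under 0.05. Both comparisons use the same control array.

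Between the doses, 15 Gy exceeded 12 Gy by 0.25 (SE 0.41) for fga, 0.62 (SE 0.44) for fgb and 0.89 (SE 0.45) for fgg on the log2 scale, or 1.19-fold, 1.54-fold and 1.86-fold. The difference for fga was within the SD of the 15 Gy arrays (0.44), and was 0.08 without pool 1 and 0.50 without pool 2. Those for fgb and fgg exceeded their SD (0.47 and 0.48) but not the range of the 15 Gy arrays. Across the array, 1 of 15502 probe sets (0.00645%) passed limma for 15 Gy against 12 Gy, and 1383 (8.92%) had an unadjusted p under 0.05. The 1 probe set belongs to the coatomer gene copb2, named because it is the only call, which stood at 8.84 at 12 Gy and at 2.35, 2.36 and 2.29 at 15 Gy, with the control just above the 15 Gy arrays, so that the single 12 Gy array stood apart from the other 4.

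Within the 15 Gy arrays the spacing was most even between fgb and fgg. The difference from the control of fgb exceeded that of fgg by 0.30, 0.33 and 0.41 in pools 1, 2 and 3 (mean 0.35 ± 0.06, SD, n = 3), and by 0.62 at 12 Gy. The difference of fgb exceeded that of fga by 0.24, 0.14 and 0.08 in the same pools (mean 0.16 ± 0.08), but was lower at 12 Gy (−0.22). The difference of fga exceeded that of fgg by 0.05, 0.19 and 0.33 at 15 Gy (mean 0.19 ± 0.14), and by 0.84 at 12 Gy. In each of these comparisons the 12 Gy value lay outside the range of the 15 Gy arrays, with fga high and fgg low at 12 Gy relative to the others. The 12 Gy array is a single pool, so this has no replicate.

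The arrays ranked alike for the 3 genes. For each, 15 Gy pool 1 was highest, pool 3 was next and the control was lowest. Pool 2 and the 12 Gy array stood between, with pool 2 below the 12 Gy array for fga and above it for fgb and fgg. A sign of RNA quality moved in nearly the same order. The signal of the actin control transcript at its 5′ end, divided by that at its 3′ end, was 0.0171 in the control pool, 0.0354 in the 12 Gy pool, and 0.129, 0.035 and 0.108 in 15 Gy pools 1, 2 and 3. For fga this is the same order of the 5 arrays, though with pool 2 and the 12 Gy pool at almost the same ratio, and the SD of the difference from the control over all probe sets gives the order of fga exactly. The part of this array-wide spread in the fibrinogen values was not tested. The GAPDH transcript gave 0.174 in the control pool, 0.177 in the 12 Gy pool, and 0.242, 0.189 and 0.228 in the 15 Gy pools, which is the order of the 5 arrays for fgb and fgg. The part of RNA quality in the fibrinogen values was not tested.

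The liver is the source of fibrinogen, and of its 5 measured marker genes 1, cp, ran close to the chains while the others differed less from the control. Of 8 hepatocyte genes listed as markers, 5 were on the array, and 2 of these were at least 2-fold higher in every 15 Gy array and 0 lower. The liver fatty acid binding protein gene fabp10a, a defining hepatocyte marker, stood on the log2 scale at 7.94 in the control, 8.04 at 12 Gy, and 5.98, 7.72 and 7.84 in 15 Gy pools 1, 2 and 3. It was thus lowest in the array in which fibrinogen was highest. The transferrin gene tfa stood at 8.62 in the control, 8.85 at 12 Gy, and 9.11, 9.05 and 9.71 in the 15 Gy pools. The apolipoprotein gene apoa2 stood at 10.84 in the control, 10.70 at 12 Gy, and 12.16, 12.10 and 12.49 in the 15 Gy pools. At 12 Gy it thus lay just under the control, where the chain genes were already higher. The gene ambp, which encodes a precursor of plasma proteins, stood at 5.97 in the control, 6.12 at 12 Gy, and 6.83, 6.21 and 6.64 in the 15 Gy pools. The ceruloplasmin gene cp stood at 5.20 in the control, 7.31 at 12 Gy, and 7.85, 6.98 and 7.24 in the 15 Gy pools, and was 4.45-fold higher at 15 Gy and 4.31-fold at 12 Gy. The genes ambp and cp are given to complete the 5. The gene cp is also in the list of acute phase plasma proteins below, and the others are in that of constitutive liver proteins.

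The median difference of the chains from the control exceeded the median of the 5 hepatocyte genes by 2.18 at 12 Gy and by 2.25, 1.86 and 1.88 in 15 Gy pools 1, 2 and 3. The chains were chosen for being higher than this same control, so a gap in this direction was favoured in advance and nothing is read from it. The hepatocyte median itself was 0.15 at 12 Gy and 0.87, 0.42 and 1.09 in the 15 Gy pools. The summed intensity of these 5 genes was 2578 in the control, 2620 at 12 Gy and 5320 to 7052 at 15 Gy, and none was at 0. In RNA of whole larvae, more hepatocytes and more RNA per hepatocyte cannot be told apart.

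Genes named in the following groups were taken by a fixed rule: up to 4 of each list with the largest difference at 15 Gy for which no 15 Gy array crossed the control. A list is described by how many of its genes were at least 2-fold higher or lower than the control in all 15 Gy arrays and by its median log2 difference, to be read against 5.09% higher, 2.49% lower and a median of 0.01 over all genes. With limma, 0 genes of any list passed after adjustment over all probe sets.

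**Figure D2:**
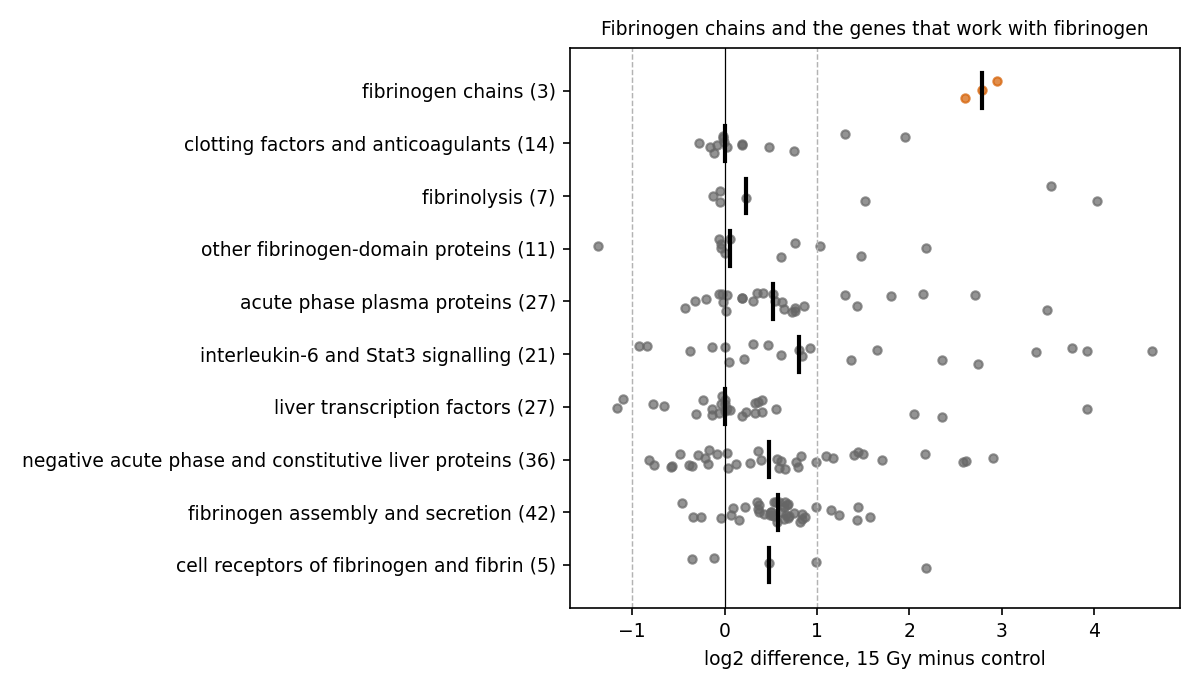
Log2 difference of 15 Gy against control (horizontal axis) for the fibrinogen chains and 9 lists of genes (rows, number of genes on the array in parentheses), 1 point per gene, with a black bar at the median and dashed lines at 2-fold. The chains lie between 2.60 and 2.95, while the clotting factors have a median of 0.01 and the interleukin-6 and Stat3 genes a median of 0.81.

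The list of interleukin-6 and Stat3 signalling held the largest difference of any list, that of socs3a (4.63 at 15 Gy). The genes of interleukin-6 and its receptor (il6, il6r, il6ra and il6st) were not analysed here, and whether this signalling was active was not tested. Of 21 genes of interleukin-6 and Stat3 signalling on the array, 8 were at least 2-fold higher in every 15 Gy array and 0 lower (median 0.81, and 1.09 at 12 Gy). The transcription factor gene stat3 stood at 6.22 in the control, 7.67 at 12 Gy, and 7.85, 7.46 and 7.45 in 15 Gy pools 1, 2 and 3, and was 2.58-fold higher at 15 Gy and 2.73-fold at 12 Gy. Its feedback inhibitor gene socs3a, which Stat3 itself activates in mammals, stood at 6.28 in the control, 11.44 at 12 Gy, and 11.23, 10.52 and 10.96 in the 15 Gy pools. Its paralog socs3b was 13.6-fold higher at 15 Gy and 16.7-fold at 12 Gy, and the AP-1 gene junba 10.3-fold and 12.2-fold. These 4 genes stood at least as high at 12 Gy as on average at 15 Gy, unlike the chain genes. The rest of the 8 higher genes, cebpb, cebpd, junbb and jak1, stood slightly lower at 12 Gy than on average at 15 Gy. Their differences of 15 Gy against 12 Gy were 0.04, 0.02, 0.06 and 0.15 on the log2 scale, in that order. For fga the difference of 15 Gy against 12 Gy (0.25) was within the SD of the 15 Gy arrays (0.44).

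Among 27 transcription factor genes of the liver, 3 were at least 2-fold higher in every 15 Gy array and 0 lower (1 without pool 2, nr2f1a; median 0.00, and 0.02 at 12 Gy), and all 3 encode C/EBP factors. Of these, cebpb and cebpd are also in the interleukin-6 and Stat3 list and are counted among its 8 higher genes. The gene cebpb, whose mammalian product binds promoters of acute phase genes, stood at 5.77 in the control, 9.67 at 12 Gy, and 10.24, 9.32 and 9.57 in 15 Gy pools 1, 2 and 3. It was 15.3-fold higher at 15 Gy. The gene cebpd was 5.15-fold higher by its brighter probe set (log2 difference 2.36), but its other, dim probe set differed by only 0.08. The gene cebpa, a hepatocyte factor, was 4.13-fold higher at 15 Gy and 3.13-fold at 12 Gy. The nuclear receptor gene nr2f1a, which neural tissue also expresses, lay lower, at 7.46, 8.45 and 8.18 in the 15 Gy pools, against 9.19 in the control.

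Other acute phase plasma proteins were mixed. Of 27 genes on the array, 6 were at least 2-fold higher in every 15 Gy array and 0 lower (median 0.53, and 0.53 at 12 Gy). The complement gene c4b stood at 4.89 in the control, 8.24 at 12 Gy, and 8.89, 7.92 and 8.33 in 15 Gy pools 1, 2 and 3, which made it 11.2-fold higher at 15 Gy. The complement genes c6.2 and c3a.1 were 6.56-fold and 3.47-fold higher at 15 Gy (2.31-fold by the dimmer probe set of c3a.1), and the copper carrier gene cp, ceruloplasmin, 4.45-fold. All 4 had nearly the same difference at 12 Gy (3.35, 2.56, 1.89 and 2.11 on the log2 scale for c4b, c6.2, c3a.1 and cp), as did fga. In contrast, the C-reactive protein gene crp, named after its values were seen, stood at 5.35, 7.12 and 6.22 in the 15 Gy pools, against 5.47 in the control, so that its arrays lay on both sides.

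The list of negative acute phase and constitutive liver proteins had 36 genes on the array, of which 9 were at least 2-fold higher in every 15 Gy array and 0 lower (median 0.49, and 0.10 at 12 Gy). Whether each listed gene lies outside the positive acute phase response was not tested. The growth factor carrier gene igfbp1a was 7.54-fold higher at 15 Gy and 6.62-fold at 12 Gy by its brighter probe set, and 4.76-fold at 15 Gy by the other. The apolipoprotein gene apoeb was 6.13-fold higher at 15 Gy and 5.31-fold at 12 Gy. Its paralog apoea, 5.96-fold higher at 15 Gy, was 1.85-fold higher at 12 Gy. The apolipoprotein gene apoa1a was likewise 4.49-fold higher at 15 Gy and 1.71-fold at 12 Gy. For fga, fgb and fgg the log2 difference of 15 Gy against 12 Gy (0.25 to 0.89) was smaller than for apoea (1.69) and apoa1a (1.39). It was larger than for igfbp1a (0.19) and apoeb (0.21), and larger than the median of the list (0.20). Brain and other tissues also express some apolipoprotein genes, so this list is not confined to the liver.

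The measured clotting factors and anticoagulants had a median difference near 0. Thrombin (f2) and f8, f10, f11, f12 and f13b were not analysed here. Of 14 clotting factor and anticoagulant genes on the array, 1 was at least 2-fold higher in every 15 Gy array (2 without pool 2) and 0 lower. Their median was 0.01, and −0.04 after median centring, and 0.20 at 12 Gy. The gene that was higher in all pools was tfpia, which encodes an inhibitor of tissue factor and is not mainly a liver product. It stood at 6.06 in the control, 7.82 at 12 Gy, and 8.17, 7.76 and 8.08 in 15 Gy pools 1, 2 and 3. The cofactor gene f5 was 2.47-fold higher on average at 15 Gy, with 1 pool under 2-fold (log2 difference 0.89). The kininogen gene kng1 was 1.68-fold higher and the antithrombin gene serpinc1 1.39-fold. Several of the remaining genes were dim: the protein C gene proca stood at 4.37, 4.37 and 4.32 at 15 Gy, against 4.37 in the control, below the lower quartile of each array, so a change of such a gene could have been missed. The gene proca was chosen after its values were seen.

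Of 7 fibrinolysis genes on the array, 3 were at least 2-fold higher in every 15 Gy array and 0 lower (median 0.23, and 0.88 at 12 Gy). The largest differences were in anxa2a and s100a10b, whose mammalian counterparts form a surface complex that binds plasminogen and its activator. The gene anxa2a stood at 6.12 in the control, 9.79 at 12 Gy, and 10.74, 9.55 and 10.14 in 15 Gy pools 1, 2 and 3. The gene s100a10b was 11.6-fold higher at 15 Gy and 4.88-fold at 12 Gy. Both anxa2a and s100a10b are expressed in many epithelia, and the epidermis markers lay higher as well, with a median of 1.56 over 5 genes. In contrast, the paralog anxa2b, named after its values were seen, stood at 7.34 in the control and 6.47 at 12 Gy. It stood at 6.90, 7.20 and 7.52 in 15 Gy pools 1, 2 and 3, on both sides of the control. The protease inhibitor gene serpine2 was 2.86-fold higher at 15 Gy. The plasminogen gene plg, which the liver makes, was 1.17-fold higher at 15 Gy but 2.18-fold at 12 Gy by the brighter of its probe sets. The other probe set did not show this contrast, with log2 differences of 0.46 at 15 Gy and 0.42 at 12 Gy.

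Most assembly and secretion genes differed by small amounts in the same direction. Of 42 genes of chaperones, oxidases and export from the endoplasmic reticulum, 38 were higher than the control in every 15 Gy array, a position shared by 3605 genes in all (41.0%), but only 2 were at least 2-fold higher in each (6 without pool 2) and 0 lower (median 0.58, and 0.28 at 12 Gy). A further 3 genes were lower than the control in every 15 Gy array, by less than 2-fold: lman2la (−0.46), pdia2 (−0.34) and furinb (−0.25), named because they are the exceptions. Over all genes, 3211 (36.5%) were lower than the control in every 15 Gy array. The 2 genes past 2-fold were the chaperone genes hspa5, at 10.28, 9.18 and 9.74 in 15 Gy pools 1, 2 and 3 against 8.17 in the control, and hsp90b1, 2.73-fold higher. The disulfide isomerase gene pdia4 was 2.72-fold higher on average and the oxidase gene ero1a 2.36-fold. In all 4 genes pool 1 was highest and pool 2 lowest of the 15 Gy arrays, as in the fibrinogen chains. Most secretory cells use these genes.

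Relatives and receptors of fibrinogen gave few large differences. Of 11 other genes of proteins with a fibrinogen-like domain, 2 were at least 2-fold higher in every 15 Gy array and 0 lower (1 without pool 2, tnr; median 0.06, and 0.14 at 12 Gy). These were angptl7 (4.54-fold at 15 Gy) and the lipase inhibitor gene angptl4 (2.78-fold). The gene mfap4.5 was 2.04-fold higher on average. The tenascin gene tnr, a brain matrix gene, lay lower, at 5.57, 6.60 and 6.33 in 15 Gy pools 1, 2 and 3, against 7.53 in the control.

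Only 5 genes listed with the cell receptors of fibrinogen and fibrin were on the array, and 1 was at least 2-fold higher in every 15 Gy array (median 0.48, and 0.63 at 12 Gy). Whether the product of each listed gene, gp1bb among them, itself binds fibrinogen was not tested. This was the syndecan gene sdc4, 4.53-fold higher at 15 Gy by its brighter probe set and 12.5-fold by the other. The gene sdc2 was 1.99-fold higher and the integrin gene itga5 1.39-fold. Thrombocytes, the fish counterpart of platelets, bind fibrinogen through the integrin that itga2b encodes in part. This gene stood at 2.79, 2.75 and 2.67 in the 15 Gy pools, against 2.85 in the control, and the receptor gene gp1bb at 3.58, 3.95 and 3.68, against 4.09. Both lay below the lower quartile of each array, so both probe sets were dim throughout.

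Several genes came close to the profile of the chains over the 5 arrays. Likeness was measured as the Euclidean distance between gene-centred log2 profiles and the mean profile of the 3 chains, over which fgb itself lay at 0.146, fga at 0.324 and fgg at 0.363, against a median of 2.50 over all other genes. The chains form this mean and were chosen for these values, so nothing is read from the median. The nearest gene was fn1a (0.148), which encodes fibronectin, a plasma and matrix protein that is crosslinked to fibrin. It stood at 6.15 in the control, 8.50 at 12 Gy, and 9.36, 8.42 and 9.01 in 15 Gy pools 1, 2 and 3. This holds for the brightest of its 3 probe sets, whereas the others differed by −0.35 and 0.31 at 15 Gy. Next were the simple-epithelium keratin gene krt8 (0.198), the actin-binding gene tagln2 (0.248) and the transglutaminase gene tgm2b (0.288).

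The list went on with the stress gene gadd45aa (0.292), phlda3 (0.302), a target of p53 in mammals, the carboxypeptidase gene cpn1 (0.310), whose mammalian product is a liver enzyme of plasma, and the ubiquitin ligase gene rnf183 (0.312). All 8 were nearer to the mean profile than fga and fgg were. Their fold at 15 Gy ran from 5.53 for cpn1 and rnf183 to 6.86 for fn1a. This nearness is a description of 5 arrays, with 1 control among them.

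**Figure D3:**
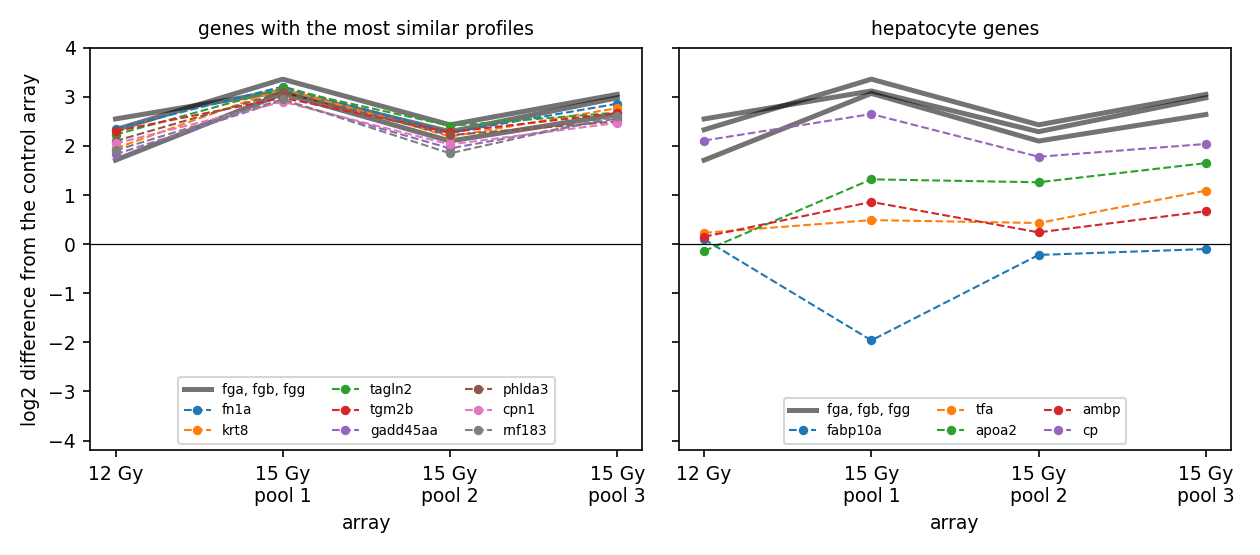
Log2 difference from the control array (vertical axis) in each irradiated array (horizontal axis), with thick lines for fga, fgb and fgg in both panels and dashed lines for the 8 genes with the most similar profiles (left) or the 5 hepatocyte genes (right); lines only join the points of a gene. The similar genes follow the chains closely, while fabp10a lies below the control at 15 Gy and only cp among the hepatocyte genes comes near the chains.

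Markers of several other cell types moved in the same arrays. Those of photoreceptors had a median of −3.10 at 15 Gy (6 of 8 on the array, 5 at least 2-fold lower in every 15 Gy array, summed intensity 640 to 10797 at 15 Gy against 31600 in the control). Those of neurons had a median of −1.58 (8 of 8, 4 lower, sum 2638 to 7545 against 15737). In both lists 15 Gy pool 1, with the highest fibrinogen values, had the lowest sum. Leukocyte markers had a median of 0.59 (7 of 9, 1 higher, sum 492 to 626 against 320), enterocyte markers −0.17 (6 of 6, 1 lower, sum 887 to 2362 against 1544) and exocrine pancreas markers −0.59 (7 of 8, 0 lower, sum 564 to 2353 against 1726). Epidermis markers (5 of 7, 3 higher) had a sum of 8195 to 11783 against 4905. Endothelial markers had a median of 0.11 (5 of 8, 0 higher, sum 295 to 390 against 217), fast muscle markers 0.42 (7 of 8, 0 higher, sum 73036 to 87313 against 65886) and thrombocyte markers −0.10 (6 of 9, 1 higher, sum 325 to 437 against 201). Without 15 Gy pool 2, the counts of lower genes were 7 for neurons and 6 for photoreceptors. Those of higher genes were then 4 for epidermis, 3 for leukocytes and 2 for thrombocytes. Without pool 3, 1 exocrine pancreas gene was at least 2-fold lower in both others. At 12 Gy, 7 exocrine pancreas markers (median −1.61, sum 538), 6 of photoreceptors, 5 of neurons and 1 of enterocytes were at least 2-fold lower. In each of these lists 0 were higher, and 4.53% of all genes were lower by this rule. The epidermis sum at 12 Gy was 4477, below the control, but 3 of its 5 genes were at least 2-fold higher there and 0 lower. Its brightest genes in the control, krt4 and krt5, were lower at 12 Gy (log2 differences −0.56 and −0.96). By the same rule 2 thrombocyte markers and 1 leukocyte marker were higher at 12 Gy, with 0 lower in both lists. No marker was at 0, and the part of these shifts in the fibrinogen values was not tested.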

How the data were processed

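The authors deposited an intensity for every probe set of each array (3.99 to 24171, linear). RMA is named in the submitters' processing notes, with version and chip definition not given in the sources used here. RMA gives log2 values, so these appear to have been returned to a linear scale, a reading from the values. Per the labels' protocols, cRNA was made from 6 µg of total RNA.

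Values were turned to log2, 115 control probe sets were left out, and 15502 were fitted with limma 3.58.1 in R 4.3.3 (a mean per group, all 5 arrays, 2 residual degrees of freedom from the 15 Gy arrays, Benjamini-Hochberg adjustment). The number of arrays limits the precision, and p-values measure the spread between the 15 Gy pools. Tested on simulated data of this design for 15 Gy against control (15502 probe sets, 50 changed per size), the fit called 33 and 32 of those changed by 2 and −2 on the log2 scale, 43 and 41 of those changed by 4 and −4, and 7 unchanged ones. The changed probe sets were drawn at random, each with its own SD of the 15 Gy arrays. These counts thus do not give the detection for the chains, whose SD was 0.44 to 0.48. The simulated noise was also independent between probe sets and gave no ties. In the deposited values, 3879 of 15502 probe sets had identical values in 2 or more arrays. In the real arrays the fit called 0 in this comparison. Tables and figures used Python 3.11.15, pandas 2.3.3 and matplotlib 3.10.9. Symbols came from the platform table, updated by Entrez identifier (10711 of 10795 matched, 1 changed). Probe sets with several symbols (135) or none (4572) were not named, and a gene took its brightest probe set. Of 372 list entries, 190 were on the array, 9 through older names. Beside the lists, the rule named fabp10a, tfa, apoa2, itga2b, stat3, socs3a, cebpb and the 8 nearest profiles; mpl and il6st were not analysed here. The genes and lists were chosen with earlier results of these data known. No batch is given in the sources used here. Alternatives changed the normalization, constant, filter, probe set rule and arrays.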

Additional observations from a re-analysis of the deposited data

How the results depend on the processing

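No paired analysis was possible because the labels give no pairing of arrays across groups, and the control and 12 Gy had 1 array each. The chain differences kept their direction, and moved by no more than the SD of the 15 Gy arrays, under every alternative run. Part of this was fixed in advance. Each chain has 1 probe set, so the filter and the probe set rule could not change its difference. Leaving out a 15 Gy replicate can only move the mean by less than that SD. No alternative varied the single control array. At 15 Gy against control, normalization, the constant, the filter and the probe set rule gave 2.55 to 2.79 for fga, 2.57 to 2.95 for fgb and 2.28 to 2.60 for fgg on the log2 scale, with the lowest values after adding 16 to each intensity. Leaving out each 15 Gy replicate gave 2.63 to 3.05 for fga, 2.74 to 3.21 for fgb and 2.37 to 2.85 for fgg, lowest without replicate 1 and highest without replicate 2. The difference of 15 Gy against 12 Gy was 0.08 to 0.50 for fga, 0.41 to 0.88 for fgb and 0.66 to 1.14 for fgg when a 15 Gy replicate was left out.

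Calls with limma stayed few. For 15 Gy against control, 6 probe sets passed with all irradiated arrays as 1 group and 0 under the other alternatives, leave-one-out included (0 to 0). For 12 Gy against control, 4 passed after quantile normalization, 2 after cyclic loess, and 1 each after median centring, adding 16 and an intensity trend in the prior variance. For 15 Gy against 12 Gy the 1 call became 0 without the dimmest 30% of probe sets and 0 without any 1 of the 15 Gy replicates. The 642 probe sets at least 2-fold higher in every 15 Gy array became 642 to 1046, and the 435 lower became 435 to 841, when a replicate was left out, highest without replicate 2. A fall was not possible here, because fewer arrays had to pass the rule.

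The list medians at 15 Gy depended more on the settings, and the cause was not tested except where genes left the list. Without the dimmest 30% of probe sets, fewer genes remained and the medians were 0.48 for clotting factors, 0.87 for fibrinolysis, 0.76 for other fibrinogen-domain proteins, 0.76 for acute phase proteins, 0.03 for liver transcription factors, 0.72 for constitutive liver proteins and 0.99 for receptors. The near-zero median of clotting factors turned to −0.04 with median centring and to −0.02 without replicate 2, and was 0.10 after quantile normalization and 0.11 both after cyclic loess and with the mean over probe sets. Leaving out each replicate gave −0.02 to 0.06 for clotting factors, 0.05 to 0.14 for other fibrinogen-domain proteins, 0.38 to 0.49 for acute phase proteins and 0.00 to 0.05 for liver transcription factors. The fibrinolysis median was 0.16 after quantile normalization, 0.17 both after cyclic loess and median centring, and 0.34 with the mean over probe sets. Other fibrinogen-domain proteins had 0.13 after cyclic loess and 0.01 after median centring. Acute phase proteins had 0.47 after quantile normalization, 0.45 after cyclic loess and 0.30 with 16 added, interleukin-6 and Stat3 genes 0.64 after cyclic loess, and receptors 0.32 with 16 added. Liver transcription factors had 0.04 after cyclic loess, −0.05 after median centring and 0.03 with the mean over probe sets. Of all 639 values recomputed, 580 kept their direction and stayed within 1 SD or 1.5 times. For single genes, part of this was fixed in advance, as for the chains. Leaving out a 15 Gy replicate moves a gene's mean by less than its SD, and the filter leaves the difference of a kept gene unchanged. The probe set rule cannot change a gene with 1 probe set. Among the counts, chain differences and list medians, 166 values stayed, 41 moved and 2 reversed.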
